A study of Temnothorax americanus and Temnothorax ambiguus and Temnothorax curvispinosus with 48 samples.

Results

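The contigs described here are those whose protein match names the insect cuticle, chitin, Protein yellow or a mucin. They were found by searching the match titles of the contigs that the study listed as differing between the raiding and the non-raiding phenotype, so the titles used here are only those of contigs chosen on that same contrast, and the direction and size of each contig below are a description and not a test. The assemblies of the 6 species held 339894 contigs, of which 2140 had a protein title in these lists and 14 of those were members. Titles of contigs outside the lists were not used here. They comprised 6 of the 54054 *Temnothorax americanus* contigs, 5 of the 48783 from *T. pilagens* and 3 of the 57994 from *T. duloticus*. Slavemakers had 14 members among 1784 listed contigs with a title, against 0 among 356 in the 3 host species. Host lists were short and host levels of such proteins were not examined, so nothing is read from the 0. Mucin-1 was the title of 9 contigs, Protein yellow of 3, Flexible cuticle protein 12 of 1 and Endocuticle structural glycoprotein SgAbd-1 of 1, while 0 titles held the words chitin or cuticular. The set is therefore mainly one of Mucin-1 and Protein yellow matches.

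An insect is covered by a cuticle, a layer of chitin fibers and structural proteins that the epidermis secretes and then tans. Proteins of the yellow family are secreted proteins tied to pigment and melanin, and in the honeybee a branch of the same family gave rise to the royal jelly proteins. Mucins are large, heavily glycosylated proteins that coat epithelia, and in insects some of them take part in the peritrophic matrix, the chitin-bearing lining of the midgut.

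Slavemaking ants raid nests of related species and carry off brood, which later works for them. A library pooled 6 whole workers that came from 3 colonies, 2 from each, and every species had 4 raiding and 4 non-raiding libraries, or 48 in all. The groups compared are raiding workers of *T. americanus*, *T. duloticus* and *T. pilagens*, taken during raids, and non-raiding workers of the same 3 species. The sample labels call the non-raiding workers before raid, but per the methods they were collected in autumn, after the raids had ended. Season and behaviour therefore cannot be told apart, all slavemaker workers used were infertile, and no allele, transgene or drug was part of the design. In the hosts *T. longispinosus*, *T. curvispinosus* and *T. ambiguus*, the raiding state was nest defense and the non-raiding state came from foragers sampled before it.

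Slavemaker libraries held 6473400 to 49129121 counts. The study removed 6 of its 48 libraries as outliers, among them 1 raiding library of *T. americanus* and 1 of *T. pilagens*, so 3 raiding and 4 non-raiding libraries were kept in these species and 4 of each in *T. duloticus*. Names of contigs assembled from single libraries carry a short tag, which reads smadr for 8 slavemaker libraries labelled non-raiding and smifors for 4 labelled raiding, but hfbr for 7 host libraries labelled non-raiding and hfdr for 4 labelled raiding. The letters dr end both smadr and hfdr, so the slavemaker tags could be read as the opposite state. The sources used here do not explain the slavemaker tags, and the sample labels were followed. An exchange of the 2 slavemaker labels would turn the direction of all 14 contigs.

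All 14 contigs had lower levels in raiding than in non-raiding workers, with log2 fold changes between -3.20 and -0.63 and a median of -0.96. In *T. americanus* 5 of 6 members passed an adjusted p of 0.05 in edgeR's quasi-likelihood test, where 0.384% of the 40389 tested contigs were called lower. The count was 2 of 5 in *T. pilagens*, beside 1.94% of 38402 tested contigs, and 0 of 3 in *T. duloticus*, beside 0.284% of 41591. All 3 *T. duloticus* members had an unadjusted p under 0.05, beside 6.75% of tested contigs with such a p and a lower level, and DESeq2 called 3 of them, but the choice of the members on this contrast makes low p-values likely, and nothing is read from these counts. The *T. americanus* members had a median log2 fold change of -2.41, beside 0.0036 for all tested contigs. Medians were -0.90 beside 0.019 for *T. pilagens*, and -0.81 beside 0.0052 for *T. duloticus*. Nearest to the threshold were Mucin-1 contig C of *T. pilagens* on the inside, with an adjusted p of 0.0319, and its contig D on the outside, with 0.0531 (edgeR).

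**Figure D1:**
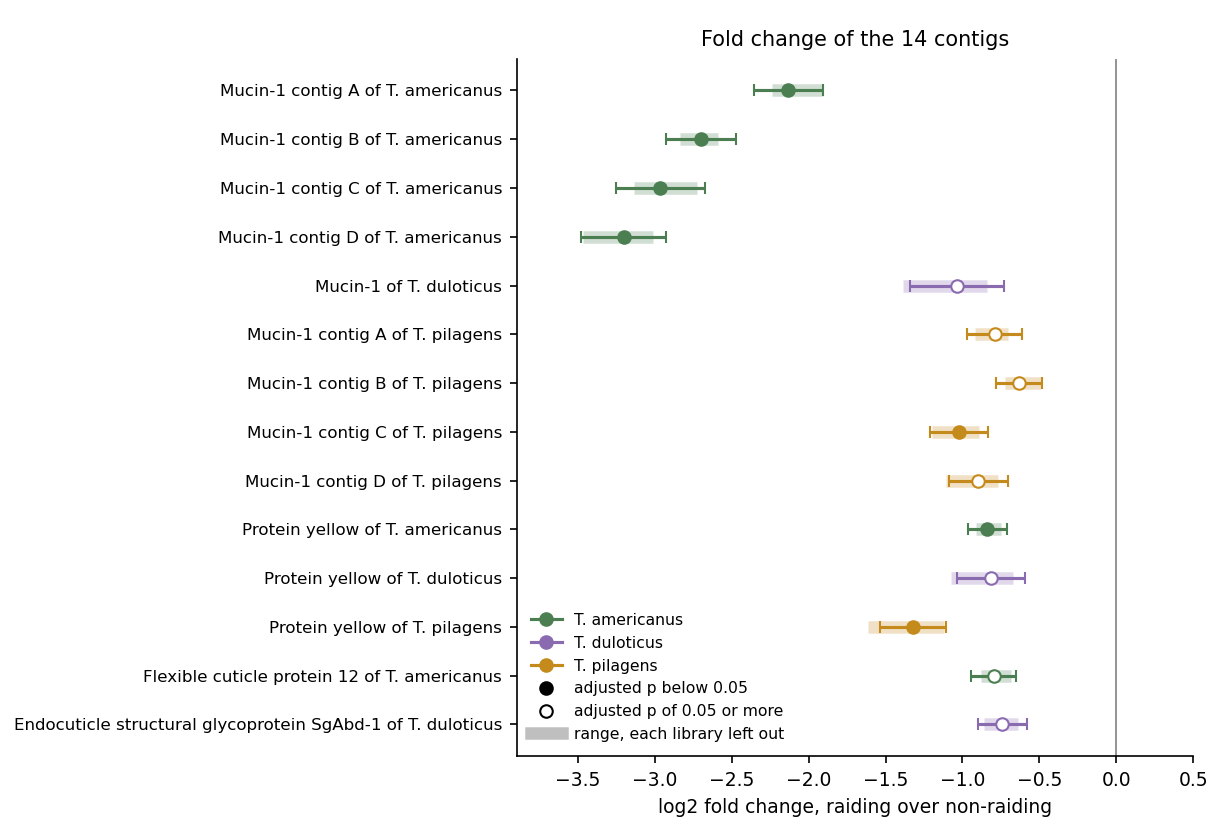
Log2 fold change of raiding over non-raiding workers (horizontal axis) for the 14 contigs, as fitted value (point) with its standard error (bar), and the range when each kept library was left out in turn (shaded). Filled points passed an adjusted p of 0.05. All points lie left of 0, and the 4 Mucin-1 contigs of T. americanus lie farthest from it, between -3.20 and -2.13.

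The number of members called depended on single libraries. In *T. americanus* it was 4 without any 1 of the non-raiding libraries, but 2, 1 and 3 without raiding library DR_437, DR_438 or DR_440. In *T. pilagens* it was 0 without non-raiding library BR_681 or BR_682 or without raiding library DR_684, 1 without raiding library DR_685 or DR_686, and 4 without non-raiding library BR_680. In *T. duloticus* it was 1 without raiding library DR_423. The fitted fold changes moved less. In 39 fits with other settings, which gave 182 values for single contigs, every value stayed below 0 and lay between 0.766 and 1.34 times the value reported here.

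Several other tests called more members and also more contigs in all. The likelihood ratio test called 6 *T. americanus* members, beside 1.72% of tested contigs called lower, 5 *T. pilagens* members, beside 3.33%, and 2 *T. duloticus* members, beside 1.56%. Without the filter on low counts it called 6, 5 and 1 members in the same order of species, beside 1.21%, 2.47% and 1.12%. DESeq2 called 6, 5 and 3 members, beside 3.16%, 5.72% and 3.97%. With all 8 libraries the quasi-likelihood test called 6 members in *T. americanus* and 5 in *T. pilagens*, beside 1.38% and 3.23%. Its counts were 5, 2 and 0 again with RLE size factors, beside 0.389%, 1.96% and 0.272%, and without the filter, beside 0.22%, 1.35% and 0.166%.

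Mucin-1 showed the greatest distance between states, in *T. americanus*, where 4 contigs carried this title. The 4 contigs matched stretches of only 63 to 120 codons of a Mucin-1 of the leafcutter ant *Acromyrmex echinatior*, with bit scores of 68.2 to 132, so the name rests on short and weak matches. Contig A had 67.9, 63.8 and 66.8 CPM (counts scaled to a common library size with edgeR's TMM factors) in kept raiding libraries, against 279, 241, 414.1 and 222 CPM in non-raiding libraries. Every raiding value lay below every non-raiding one, and the highest raiding library reached 0.306 of the lowest non-raiding library. Contig A averaged 66.2 ± 2.13 CPM in raiding (SD, n = 3) and 289 ± 86.8 CPM in non-raiding workers (SD, n = 4), and the fitted log2 fold change was -2.13 (SE 0.22), or 4.38-fold lower.

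The other *T. americanus* contigs of this title lay further apart. Contig B had 42.2, 50.6 and 39.5 CPM in raiding libraries, against 249, 354, 341 and 198 CPM in non-raiding libraries. Its log2 fold change was -2.70 (SE 0.23). In contig C the raiding libraries had 13.2, 13.9 and 16.1 CPM, against 96.6, 119, 162 and 69.5 CPM in the non-raiding ones, a log2 fold change of -2.97 (SE 0.29). Contig D had the lowest raiding mean, with 10.1, 9.87 and 16.0 CPM, against 110.0, 92.2, 149.96 and 86.5 CPM in non-raiding libraries. Its log2 fold change of -3.20 (SE 0.28) stood at the 0.515th percentile of all tested contigs of the species. In all 4 contigs no raiding library reached the level of any non-raiding one. Non-raiding library BR_435 was the highest of its state in contigs A, C and D, and library BR_436, the shallowest with 6473400 counts, was the lowest in all 4.

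**Figure D2:**
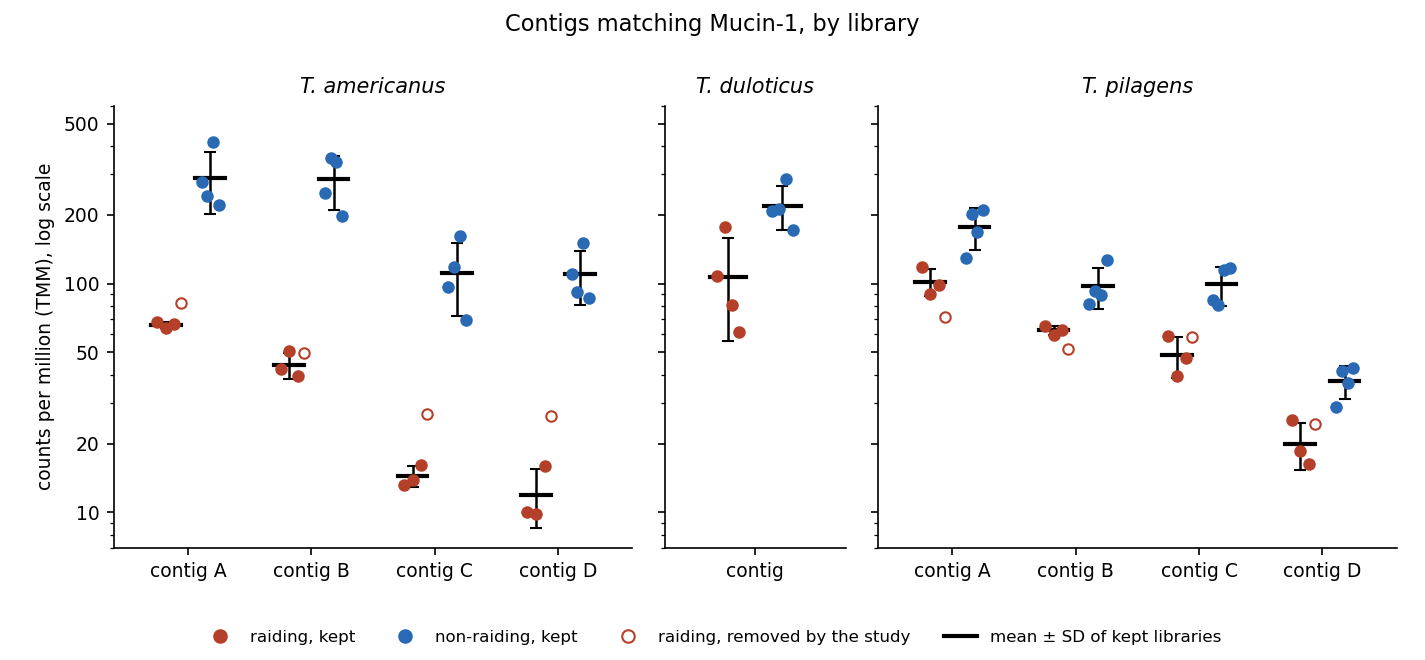
Level of each contig matching Mucin-1 in CPM (vertical axis, log scale), in raiding (red, left) and non-raiding (blue, right) libraries of the 3 slavemakers. Filled points are kept libraries, open points the raiding library removed by the study, and bars the mean ± SD of kept libraries. Raiding and non-raiding points overlap only in T. duloticus, where 1 raiding library has 177 CPM and the lowest non-raiding library 172 CPM.

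Summed over the 4 contigs, *T. americanus* had 149 ± 24.5 CPM in all 4 raiding libraries, including the removed one, and 796 ± 205 CPM in 4 non-raiding libraries (SD). The mix of the contigs is given here as a description. Contig A made up 44.3% to 50.9% of the summed Mucin-1 CPM in raiding libraries, against 29.9% to 38.8% in non-raiding libraries, so its share did not overlap between states. Shares of contig B overlapped, with 26.9% to 36.7% in raiding and 32.0% to 43.9% in non-raiding libraries. Contig D held 7.14% to 14.2% in raiding and 11.4% to 15.0% in non-raiding libraries. These shares are of CPM that were not divided by contig length, and they follow from the same contrast that chose the contigs. Reads shared between similar contigs were assigned by a probabilistic counter, so values of single Mucin-1 contigs are less certain than their sum.

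**Figure D3:**
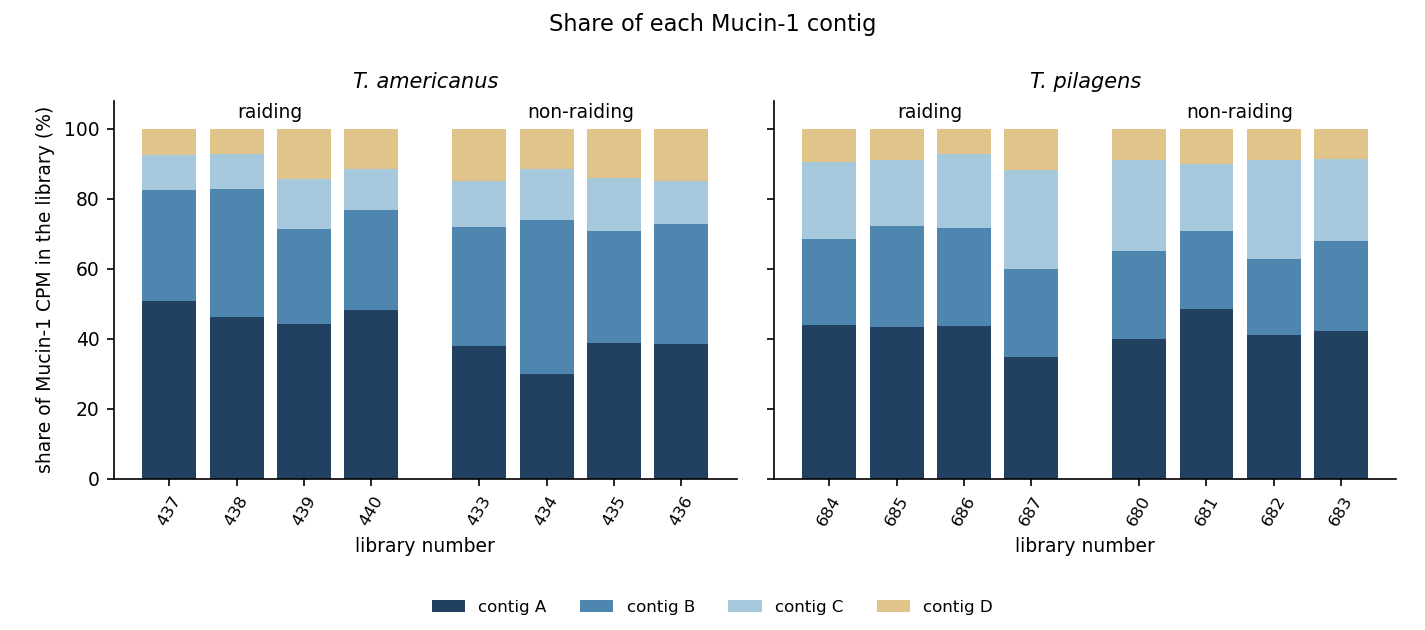
Share of each Mucin-1 contig in the summed Mucin-1 CPM of a library (vertical axis, percent), for 4 raiding (left) and 4 non-raiding (right) libraries of T. americanus and T. pilagens. In T. americanus contig A takes 44.3% to 50.9% of raiding and 29.9% to 38.8% of non-raiding libraries, while in T. pilagens the shares of all 4 contigs overlap between states.

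In *T. duloticus* 1 contig matched Mucin-1, over 98 codons with a bit score of 94.7. It had 108, 177, 80.6 and 61.5 CPM in raiding libraries, against 207, 212, 286 and 172 CPM in non-raiding libraries. The states overlapped, since raiding library DR_422 exceeded non-raiding library BR_420. Its log2 fold change was -1.04 (SE 0.31) and did not pass the test. This was the only member whose states overlapped: all 6 *T. americanus* and all 5 *T. pilagens* members lay apart, but 2 of 3 *T. duloticus* members did. Of all tested contigs, 6.3%, 9.1% and 5.11% of these species, in this order, had all kept raiding libraries below all non-raiding ones.

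*T. pilagens* had 4 Mucin-1 contigs, with matches of 116 to 339 codons and bit scores of 85.1 to 131. Contig A had 118, 90.1 and 98.4 CPM in raiding libraries, against 129.9, 202, 167 and 210.3 CPM in non-raiding libraries. Contig B had the smallest fold change of all 14, with 65.3, 59.5 and 63.0 CPM in raiding and 81.0, 93.1, 89.5 and 127 CPM in non-raiding libraries. Their log2 fold changes were -0.79 (SE 0.18) and -0.63 (SE 0.15), and neither passed the test. Contig C, which did pass, had 59.3, 39.4 and 47.4 CPM in raiding libraries, against 84.7, 80.7, 115 and 117 CPM in non-raiding libraries, with a log2 fold change of -1.02 (SE 0.19), but it passed in only 1 of 7 fits with a library left out. Contig D had 25.3, 18.5 and 16.2 CPM in raiding libraries, against 29.0, 41.4, 36.7 and 42.6 CPM in non-raiding libraries, with a log2 fold change of -0.90 (SE 0.19) that did not pass. The 2 states lay close to each other here, with the highest raiding library at 0.735 to 0.906 of the lowest non-raiding one.

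Summed Mucin-1 levels of *T. pilagens* were 227 ± 28.6 CPM in 4 raiding and 411.6 ± 70.3 CPM in 4 non-raiding libraries (SD). Contig A contributed 34.8% to 44.0% in raiding and 40.0% to 48.4% in non-raiding libraries, and the shares of the other contigs overlapped as well. The assemblies are separate for each species and no match between contigs of different species was made, so the larger fold changes of *T. americanus* were not tested against those of *T. pilagens*.

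Protein yellow was named once in each slavemaker. The match ran over 1236 bases in *T. americanus* and 1263 bases in *T. pilagens*, with bit scores of 788 and 790 that were far above those of the mucins, while the *T. duloticus* contig matched over 465 bases with a bit score of 262. All 3 matched the same leafcutter ant, *Acromyrmex echinatior*.

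The *T. americanus* contig had 21.5, 26.9 and 24.8 CPM in raiding libraries, against 37.9, 46.7, 44.1 and 45.4 CPM in non-raiding libraries. Its mean was 24.4 ± 2.68 CPM in raiding (SD, n = 3) and 43.5 ± 3.88 CPM in non-raiding workers (SD, n = 4). The log2 fold change was -0.84 (SE 0.13). It passed the test with all kept libraries but with none of the 7 left out in turn. The *T. pilagens* contig had the lowest raiding levels of the 3, at 12.6, 18.3 and 9.19 CPM, against 29.999, 35.1, 36.1 and 33.1 CPM in non-raiding libraries. Its log2 fold change of -1.32 (SE 0.22), or 2.50-fold lower, passed the test, also in 4 of 7 fits with a library left out, and was the largest of the Protein yellow contigs. In *T. duloticus* raiding libraries had 30.9, 22.9, 45.1 and 20.8 CPM, against 53.2, 52.2, 55.6 and 50.4 CPM in non-raiding libraries. The spread here was on the raiding side, and the log2 fold change of -0.81 (SE 0.22) did not pass. Without raiding library DR_423, the highest of the 4, it was -1.07 and passed.

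**Figure D4:**
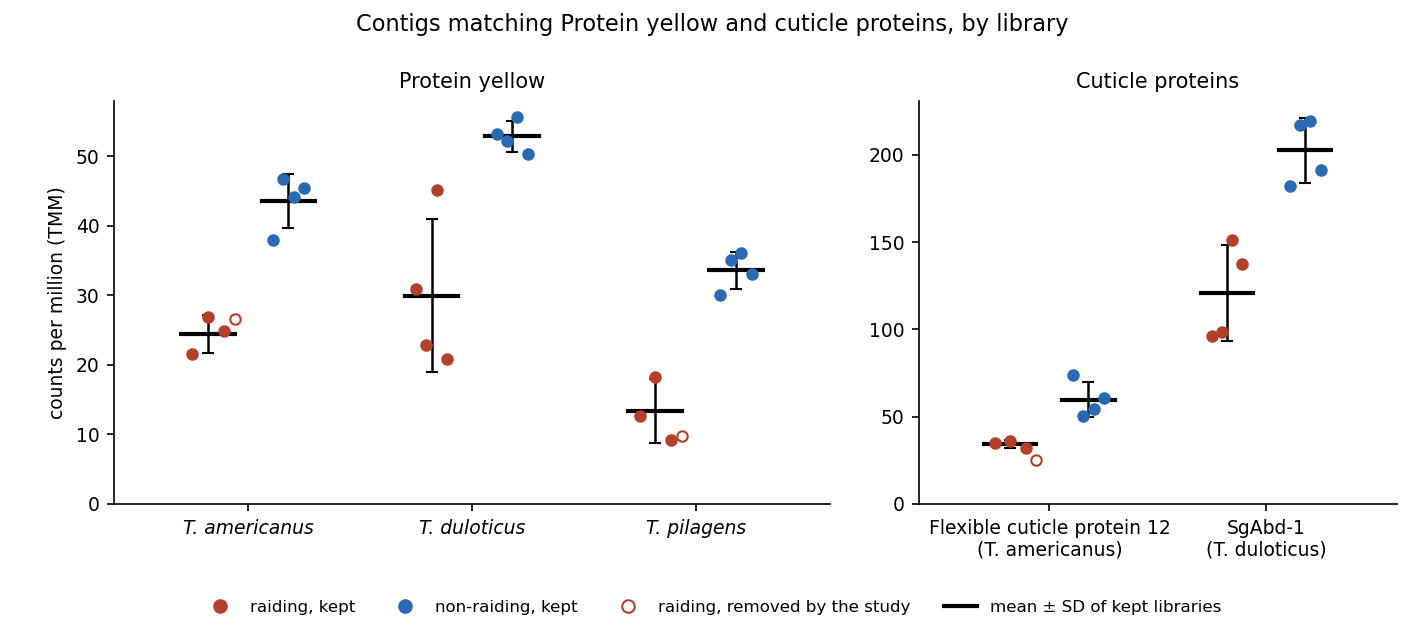
Level of the contigs matching Protein yellow (left) and cuticle proteins (right) in CPM (vertical axis), in raiding (red, left of each pair) and non-raiding (blue) libraries. Filled points are kept libraries, open points the raiding library removed by the study, and bars the mean ± SD of kept libraries. All raiding points lie below all non-raiding points of the same contig.

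The 2 cuticle proteins were each named in 1 species. Flexible cuticle protein 12, a structural protein of soft cuticle, matched a protein of the carpenter ant *Camponotus floridanus* over 303 bases of the contig, with a bit score of 167. It had 35.2, 36.2 and 32.1 CPM in raiding libraries of *T. americanus*, against 73.6, 50.4, 54.3 and 60.8 CPM in non-raiding libraries, with a log2 fold change of -0.80 (SE 0.14) that did not pass the test. Endocuticle structural glycoprotein SgAbd-1, a protein of the inner cuticle first described in a locust, matched a protein of the same carpenter ant over 699 bases, with a bit score of 305. In *T. duloticus* it had 96.1, 98.4, 151 and 137.5 CPM in raiding libraries, against 182, 217, 219.5 and 191 CPM in non-raiding libraries. Its log2 fold change was -0.74 (SE 0.16) and did not pass, although the states did not overlap. Levels of both proteins come from whole bodies, in which fewer cells of a type and less RNA per cell cannot be told apart.

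The 2 removed raiding libraries were not used when the contigs were chosen. In removed library DR_439 of *T. americanus*, Mucin-1 contigs A to D had 82.1, 49.9, 26.9 and 26.4 CPM, Protein yellow 26.6 CPM and Flexible cuticle protein 12 24.9 CPM. All 6 values lay below the lowest non-raiding library, and 2 of them, Mucin-1 contig B and Protein yellow, lay within the range of the kept raiding libraries. Mucin-1 contigs A, C and D were higher than in any kept raiding library. Of all tested contigs, called or not, that were lower in raiding workers with the kept libraries apart, 81.5% stayed apart when this library was added. In removed library DR_687 of *T. pilagens*, Mucin-1 contigs A to D had 71.7, 51.96, 58.1 and 24.4 CPM and Protein yellow 9.79 CPM. All 5 lay below the lowest non-raiding library, and 3 of 5 lay within the range of the kept raiding libraries. In this species 80.0% of tested contigs that were lower and apart in kept libraries stayed apart. The members came from lists of called contigs, so these shares are not those of contigs chosen alike. With 1 library per species no test was possible.

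Levels of the members also varied among libraries of the same state. After the mean of each state was subtracted from log2 CPM, Pearson correlations over the 8 libraries of *T. americanus* were 0.27 to 0.86 among the 4 Mucin-1 contigs, with a median of 0.73. Pairs with another protein had correlations of -0.73 to 0.37, with a median of -0.33. In *T. pilagens* the Mucin-1 contigs correlated at 0.19 to 0.82, and with Protein yellow at -0.35 to 0.24. Without removed library DR_687 the Mucin-1 pairs of *T. pilagens* had 0.51 to 0.88, and without DR_439 those of *T. americanus* had 0.18 to 0.81. The 3 members of *T. duloticus* had -0.56, -0.08 and 0.36. Similar contigs can share reads, and all values of a library share its depth and its animals.

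Among named contigs, those whose deviations were most like a member's carried titles from many fields, again over 8 libraries after the state mean was subtracted. For Protein yellow these were L-xylulose reductase in *T. americanus* (r = 0.98), Leukotriene A-4 hydrolase in *T. duloticus* (0.93) and Insulin-like growth factor-binding protein complex acid labile chain in *T. pilagens* (0.99). For the most abundant Mucin-1 contig they were Endoglucanase E-4 in *T. americanus* (0.96), Muscle M-line assembly protein unc-89 in *T. duloticus* (0.85) and JmjC domain-containing histone demethylation protein 1 in *T. pilagens* (0.98). Each is the highest among the named contigs compared, which were 261 for *T. americanus*, 532 for *T. pilagens* and 223 for *T. duloticus*. The contigs compared were also from the lists chosen on the same contrast. In *T. americanus* and *T. pilagens* the 8 libraries include the removed one, and values over kept libraries alone were not computed. L-xylulose reductase had a log2 fold change of -0.81, but Endoglucanase E-4 had 1.04, the opposite direction to that of the Mucin-1 contig it resembled within states.

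Other contigs matched by keywords for the chitin and cuticle pathways were rare among the named contigs. Beta-hexosaminidase subunit beta, of a family of enzymes that cut amino sugars from chains such as chitin, was named in *T. americanus* and *T. pilagens*. It was called lower in raiding workers of both, with log2 fold changes of -1.12 (SE 0.18) and -1.25 (SE 0.25) and adjusted p-values near the threshold, 0.0418 and 0.0455 (edgeR). A UDP-GlcNAc:betaGal beta-1,3-N-acetylglucosaminyltransferase 5 of *T. pilagens* had -0.80 (SE 0.19) and did not pass. It was matched by keyword only, and its title does not name chitin. Aromatic-L-amino-acid decarboxylase, which makes dopamine for tanning, was named in *T. americanus*, with -1.34 (SE 0.42) and no call. Lists of royal jelly proteins and of other proteins of the apical matrix had 0 named contigs in the slavemakers. In all, 1 of 2 keyword-matched contigs passed the test in each of these species, both lower. Beside this, 0.384% of tested *T. americanus* and 1.94% of tested *T. pilagens* contigs were called lower. These titles too are only those of contigs chosen on the same contrast.

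Markers of other tissues in the whole bodies are given beside the members, as a description. Marker levels are those of kept libraries only, unlike the summed Mucin-1 levels above. Their titles too are only those of contigs chosen on the same contrast. Levels of whole tissues were not measured, and nothing is read from the numbers called. In *T. americanus* 2 Titin contigs of muscle had log2 fold changes of 0.94 and 0.99, and both were called higher. They summed to 631 to 663 CPM in raiding and 304 to 383 CPM in non-raiding libraries. In *T. pilagens* 11 muscle contigs summed to 1523 to 1622 CPM in raiding and 1063 to 1407 CPM in non-raiding libraries. The 4 tested Titin contigs had log2 fold changes of 0.64 to 1.13, and 2 unc-89 contigs 0.67 to 0.79. These 6 were called higher, of 10 tested muscle contigs. The share of all tested contigs called higher is not given here. Myosin light chain kinase had 0.77 and, like troponin C (-1.70), Paramyosin (-1.19) and Myosin-IB (-0.59), was not called. In *T. duloticus* 3 muscle contigs summed to 688.1 to 924 CPM in raiding and 660.4 to 750.0 CPM in non-raiding libraries. These sums overlapped, but the single contigs lay apart, in opposite directions. Muscle M-line assembly protein unc-89 had 610 to 833 CPM in raiding and 356 to 515 CPM in non-raiding libraries. Troponin C had 17.8 to 168 against 213 to 370.5 CPM, and Paramyosin 9.51 to 12.45 against 15.7 to 23.1 CPM. In *T. duloticus* 3 trypsin and chymotrypsin contigs summed to 24.8 to 102.3 CPM in raiding and 114 to 423.7 CPM in non-raiding libraries. Of these 3 gut contigs 2 were called lower, beside 0.284% of tested contigs. In *T. pilagens* 6 trypsin-titled contigs summed to 495 to 552 CPM in raiding and 399 to 640.0 CPM in non-raiding libraries. These sums overlapped, but they include an inhibitor caught by the keyword, and the titles went both ways. Trypsin inhibitor, by its title not a protease, had 288 to 404 CPM in raiding and 57.4 to 218 CPM in non-raiding libraries. The only protease title that was higher in raiding was a chymotrypsin-like protease at low levels, with 0.18 to 2.11 against 0 CPM. The other protease titles were lower. Chymotrypsin-2 summed to 139 to 207 against 274 to 454.5 CPM, and Trypsin-7 to 0.051 to 0.27 against 0.37 to 50.2 CPM. Of these, 1 Chymotrypsin-2 contig was called lower, beside 1.94% of tested contigs. The 5 such contigs of *T. americanus* summed to 79.3 to 735 CPM in raiding and 9.47 to 87.7 CPM in non-raiding libraries. These sums overlapped too, and again the titles went both ways. Chymotrypsin-1 had 78.3 to 726 CPM in raiding and 0.60 to 21.8 CPM in non-raiding libraries. A chymotrypsin inhibitor, again not a protease by its title, had 0.062 to 11.6 against 0 CPM. Trypsin-1 had 0.87 to 1.53 against 1.91 to 8.7 CPM, and Trypsin-7 0 against 0 to 76.6 CPM. Vitellogenin titles did not go one way. In *T. duloticus* Vitellogenin-3 had 157 to 2054 CPM in raiding and 3656 to 14150 CPM in non-raiding libraries, but Vitellogenin-6 had 436.7 to 607 CPM in raiding and 157 to 341 CPM in non-raiding libraries, and neither was called. Vitellogenin-6 of *T. pilagens*, not called, had 197 to 545 CPM in raiding and 25.1 to 222 CPM in non-raiding libraries. The vitellogenin receptor, a gene of the ovary, was matched by the same keyword, with 3 contigs in *T. duloticus*, 1 of them called lower, that summed to 5.17 to 23.4 CPM in raiding and 45.8 to 57.3 CPM in non-raiding libraries. Its 1 contig in *T. pilagens* had 6.95 to 9.03 CPM in raiding and 10.4 to 23.9 CPM in non-raiding libraries, and *T. americanus* had 0 vitellogenin titles. The part of these tissues in the lower Mucin-1, Protein yellow and cuticle protein levels was not tested.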

How the data were processed

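RNA was sequenced by the authors from pooled whole ant workers. Per the labels and the methods, reads were checked with FastQC, trimmed with Trimmomatic and mapped with TopHat2 2.0.13 and Bowtie to an assembly made for each species, and eXpress gave the deposited counts, which are whole numbers per contig with no normalization. Protein titles, bit scores (deposited score of the BLASTX match) and match positions (deposited, other units) come from the authors' lists of called contigs. The authors' fold changes, p-values and averages were not used, nor were 88 further per-sample columns. *T. duloticus* columns were matched to samples by library number, since their letters disagree with the labels.

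Each slavemaker was fitted alone on the libraries the study kept, by edgeR's quasi-likelihood test (version 4.0.16, on R 4.3.3 and limma 3.58.1) after TMM scaling, for contigs that passed filterByExpr at a minimum count of 10, with Benjamini-Hochberg adjusted p-values over all tested contigs and a threshold of 0.05. All 14 members passed the filter, with 135 to 13922 counts per library. Standard errors were derived from the log2 fold change and the F statistic of the test. CPM of single libraries use TMM scaling over 8 libraries, and correlations use log2 CPM with a prior count of 2. As alternatives, the likelihood ratio test, DESeq2 1.42.0, RLE scaling, unfiltered contigs, all 8 libraries and the omission of each library were run. The scripts were tested on simulated data. Summaries used Python 3.11.15 (NumPy 2.4.6, pandas 2.3.3) and matplotlib 3.10.9.

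The members and lists were chosen with earlier results of these data known. Named are all members, and for the most abundant Mucin-1 and Protein yellow contig of each species the highest of the 3 contigs most alike. Libraries of a state are separate pools of workers, and p-values set the difference between states against the spread between these pools. Per the methods the same colonies were pooled in both states, but no source says which libraries share them.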

Additional observations from a re-analysis of the deposited data

How the results depend on the processing

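In 39 fits with other settings the 14 members had 182 log2 fold changes, all below 0 (-3.47 to -0.49). Of these 182 values, 134 kept their side of the threshold, 26 passed it only there and 22 no longer passed it. All 8 libraries of *T. duloticus* were kept, so adding removed libraries did not apply there. The number of members called in *T. americanus* was 5, and 1 to 4 with each library left out in turn. In *T. duloticus* it was 0, and 2 with the likelihood ratio test, 1 with that test without the filter, 3 with DESeq2, and 0 to 1 with each library left out. In *T. pilagens* it was 2, and 5 with all 8 libraries, with the likelihood ratio test with or without the filter and with DESeq2, and 0 to 4 with each library left out. The cause was not tested. The median correlation between members, over all pairs, was 0.27 in *T. americanus* and 0.13 over kept libraries, and 0.29 in *T. pilagens* and 0.52 over kept libraries. All 6 and 5 members stayed below the non-raiding libraries in the removed raiding libraries when library totals replaced TMM, an alternative chosen after seeing the data. Members with states apart became 3 in *T. duloticus* without non-raiding library BR_420 or raiding library DR_422. Host fits were not run, since hosts have no members. No paired analysis was possible because the labels give each library a number of its own and do not say which raiding and non-raiding pools share colonies. Counts of 135 or more leave depth a small part of the error, while 3 or 4 libraries per state limit it.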
